A study of Mus musculus with 10 samples.

Results

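The tumour suppressor p53 (gene Trp53) is a transcription factor that binds DNA next to a set of direct target genes and raises their transcription after DNA damage and other stress. The account below follows 32 of these direct targets, chosen by name from the known p53 programme with Cdkn1a left out, through epidermal cells that lost one of the Polycomb repressive complexes. The choice was made with earlier results of these data known, so counts of targets beside shares of all genes are a description only. The 2 deposited tables hold 18502 and 18344 protein-coding genes, and 31 of the 32 targets are in both. Gdf15 was not analysed here.

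The libraries came from FACS-sorted interfollicular epidermis (EpCAM-positive, Sca1-positive, high in α6-integrin) of mouse back skin at postnatal day 71. Recombination was induced with 4-hydroxytamoxifen painted on shaved back skin once a day for 4 days from postnatal day 50, a treatment that the labels give for knockouts and controls alike. The Eed table holds Eed Control (genotype Control, 3 libraries) and Eed KO (Eed -/-, 3 libraries). The Ring1 table holds Ring1 Control (genotype Control, 2 libraries) and Ring1a/b 2KO (Ring1a-/- Ring1b-/-, 2 libraries). Eed is a core subunit of PRC2, the complex that methylates histone H3 at lysine 27, and Ring1a and Ring1b are the catalytic subunits of PRC1, which ubiquitylates histone H2A. Each knockout has its own control. For the Cre recombinase, its promoter was not given in the sources used here, nor were the alleles of the controls. Nothing in the labels says whether libraries of a group came from separate animals, so p-values measure the spread between these libraries.

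In unstressed cells Mdm2, itself a p53 target, marks p53 for destruction, and the targets stay at a basal level. Once p53 is stabilised, one arm of its targets feeds back on p53, another drives cell death through mitochondria and death receptors, and others slow growth, tune metabolism, repair DNA or act on the mitotic spindle. In mouse epidermis p53 is known to raise Kitl and Pomc, which signal to melanocytes, and mice with stabilised p53 in keratinocytes have dark skin. Perp, a desmosome component of stratified epithelia, is under the control of p63, the relative of p53 that specifies the epidermis.

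The promoters of several targets carry the element that p53 binds. A window from 250 bases before to 50 bases after the start of the gene (RefSeq, GRCm38.p6) was at hand for 22 of the 31 targets. The canonical p53 half-site, searched by its consensus, which is palindromic and so covers both strands, had an exact match in 9 of these 22 (40.9%), against 9.55% of 27025 genes with a window. Allowing at most 2 mismatches over 2 abutting half-sites, 3 of 22 (13.6%) had a match, against 0.94% of all genes. The sequences below are those 3 (Ccng1, Gtse1 and Ckap2) and 3 others whose levels the results return to; capitals mark the half-site, and each reads 5′ to 3′ on the strand of its gene.
Ccng1: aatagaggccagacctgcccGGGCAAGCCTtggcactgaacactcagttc
Gtse1: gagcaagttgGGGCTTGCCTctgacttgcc
Ckap2: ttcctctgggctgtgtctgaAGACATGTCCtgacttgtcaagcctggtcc
Aen: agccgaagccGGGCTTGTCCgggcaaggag
Bax: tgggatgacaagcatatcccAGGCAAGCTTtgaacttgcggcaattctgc
Mdm2: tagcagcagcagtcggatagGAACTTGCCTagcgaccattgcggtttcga

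The Ccng1 stretch lies at chr11:40755442-40755491 on the minus strand, with its half-site beginning 185 bases before the start, and 1 mismatch separates it from 2 full half-sites. The Gtse1 stretch (chr15:85859945-85859974, plus strand) lies past the start and is also 1 mismatch away, and that of Ckap2 (chr8:22185993-22186042, minus strand, 203 bases before the start) is 2 away. The stretches of Aen (chr7:78895927-78895956, plus strand) and Bax (chr7:45467070-45467119, minus strand, 201 bases before the start) have at least 3 mismatches to the pair, and that of Mdm2 (chr10:117710915-117710964, minus strand, 186 bases before the start) has 5. A match describes the letters in the window and is no evidence of binding in these cells. The targets were chosen as known p53 targets, so their share of matches says nothing about these libraries.

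All 10 libraries had the markers of the sorted cells: the 14 basal keratinocyte markers were detected in every library, summing to 1408610 to 1955970 normalised counts in the Eed table and 289429 to 420852 in the Ring1 table. Fibroblast markers (8 genes, with Dcn and Fbln1 the larger part of each sum) summed to 191 to 434 in Eed Control and 577 to 2765 in Eed KO, and to 144 to 193 in Ring1 Control and 470 to 989 in Ring1a/b 2KO. Eed libraries held 31699979 to 40701183 reads, and Ring1 libraries 6237389 to 25158144, with replicate 2 the shallower in both Ring1 groups. Mitochondrial genes took 2.34% to 2.81% of counts in Eed Control, 2.85% to 3.58% in Eed KO, 6.51% to 7.28% in Ring1 Control, and 8.16% and 12.7% in Ring1a/b 2KO 1 and 2, so that every knockout library was above its controls. The normalised count of Eed was 1845, 1319 and 1706 in Eed Control and 1412, 1143 and 1340 in Eed KO. Ring1 (encoding Ring1a) was at 66.2 and 211 against 104 and 115, and Rnf2 (encoding Ring1b) at 675 and 670 against 720 and 529. Which exons were deleted was not given here, and a count over the whole gene does not check a deletion that leaves a transcript.

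With Eed deleted, the cyclin G1 gene Ccng1, the nuclease gene Aen, the spindle gene Psrc1 and the carbonyl reductase gene Dcxr had mean counts 2.01, 2.01, 2.10 and 2.41 times those of the controls. Of these, Aen overlapped with the controls, as did Mdm2, the sestrins and the repair genes, among others. No target passed limma at an adjusted p under 0.05, and no gene of the 16122 tested did (0%). At an unadjusted p under 0.05, 7 of the 31 targets were higher in Eed KO (Aen, Apaf1, Ccng1, Dcxr, Eda2r, Gtse1 and Psrc1), against 3.4% of all genes, and 0 were lower, against 1.33%. For 5 of them (Apaf1, Ccng1, Dcxr, Gtse1 and Psrc1) every knockout library was above every control library, against 5.06% of all genes, and for none was every knockout library below (4.15% of all genes). The authors' deposited table called 1 target, Ccng1, at an adjusted p under 0.05 and higher, against 0.707% of all genes, and 0 lower, against 0.0539%. Of the 31 targets, 20 had a log2 fold change above 0 (51.2% of all genes), with a median of 0.18 beside 0.008 over all genes.

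With Ring1a and Ring1b deleted, Psrc1, Aen and Ccng1 had mean counts 2.63, 2.21 and 1.92 times those of the controls, and Dcxr and Polk 2.18 and 2.00 times. None of the 31 passed limma at an adjusted p under 0.05, where 6 of 15310 genes did (0.0392%). At an unadjusted p under 0.05, 7 targets were higher (Aen, Ccng1, Gls2, Psrc1, Tnfrsf10b, Trp53inp1 and Zmat3), against 5.62% of all genes, and 0 were lower, against 4.81%. Gls2, the glutaminase gene, had a control mean under the minimum of 5 and was tested only through its knockout libraries, and of the 30 other targets 6 were higher. Both knockout libraries were above both controls for 14 targets, against 21.4% of all genes, and below both for 2 targets (Fas and Xpc), against 21.5%. Aen and Gls2, 2 targets, were called higher in the authors' deposited table at an adjusted p under 0.05, against 1.18% of all genes, and 0 lower, against 0.31%. A log2 fold change above 0 was seen for 22 of 31 targets (50% of all genes), with a median of 0.38 beside -0.001 over all genes. The call counts rest on few libraries: without Ring1a/b 2KO 1, 5 targets (Aen, Ccng1, Polk, Psrc1 and Trp53inp1) passed limma at an adjusted p under 0.05, against 3.7% of all genes (565 of 15262), in a fit where the lone knockout library is assumed to vary like the controls.

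**Figure D1:**
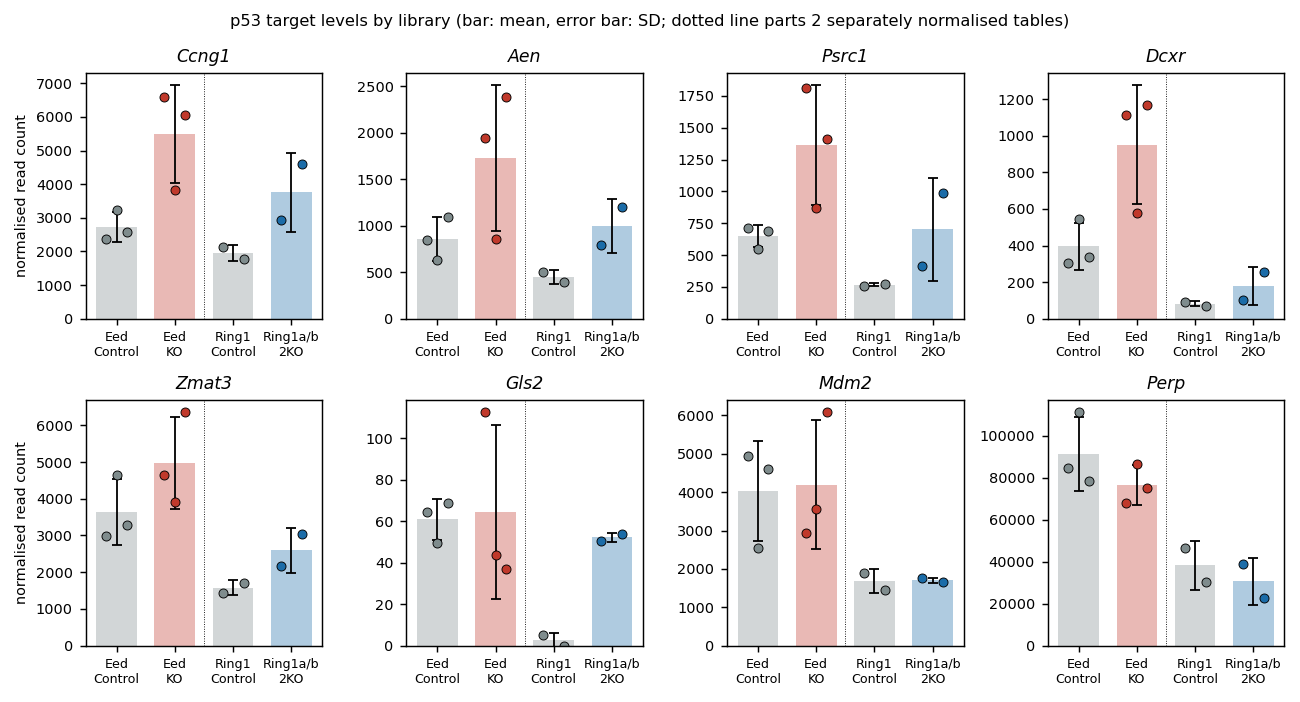
Normalised read counts (y axis, from 0) of 8 p53 targets in each library (points) of the 4 groups, with bars at the group mean and error bars of 1 SD. In all 5 knockout libraries Ccng1 and Psrc1 are above every control library of the same table, while Mdm2 and Perp overlap between groups.

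Among the targets that feed back on p53, Ccng1 was the one set apart from its controls in both tables. Cyclin G1 recruits a phosphatase that activates Mdm2. Its normalised count was 2377, 3240 and 2582 in the 3 Eed Control libraries and 6589, 3835 and 6049 in Eed KO, so that the lowest knockout library stood above the highest control. Eed deletion gave a log2 fold change of 0.98 (SE 0.24, limma unadjusted p = 0.00235, adjusted p = 0.579), and the authors' deposited table gives 1.01 with an adjusted p of 0.0351. For Ring1a/b 2KO, Ccng1 was at 2131 and 1781 in controls and 2935 and 4587 in knockouts, again without overlap. There the log2 fold change was 0.91 (SE 0.25, limma unadjusted p = 0.00521, adjusted p = 0.29), with an adjusted p of 0.0947 in the authors' deposited table.

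Mdm2, the ubiquitin ligase of p53, did not follow Ccng1. It was at 4952, 2532 and 4603 in Eed Control and 2941, 3562 and 6090 in Eed KO, with full overlap. The Ring1 table gave 1903 and 1461 against 1751 and 1650, where both knockout libraries lay between the controls. The log2 fold change was 0.05 (95% interval -0.69 to 0.78) in the Eed table and 0.03 (95% interval -0.45 to 0.51) in the Ring1 table, intervals that hold no change of 2-fold in either direction. Trp53inp1, a cofactor of p53 and of autophagy, was at 9145, 2074 and 10387 in Eed Control and 4157, 2295 and 10862 in Eed KO, each group spread over more than 4-fold. Its Ring1 counts were 969 and 1014 in controls and 1204 and 1926 in knockouts, with a log2 fold change of 0.62 (SE 0.25, limma unadjusted p = 0.0342, adjusted p = 0.443), beside -0.31 (SE 0.72) in the Eed table.

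The cell death machinery had 6 of 7 members with a positive log2 fold change in the Eed table (median 0.29) and 5 of 7 in the Ring1 table (median 0.37). Aen, an exonuclease that promotes apoptosis, was at 850, 628 and 1096 in Eed Control and at 1948, 858 and 2381 in Eed KO, where the second knockout library fell within the controls. Its count in the Ring1 table was 504 and 396 in controls and 787 and 1201 in knockouts, with no overlap. The log2 fold change was 0.92 (SE 0.37, limma unadjusted p = 0.0349, adjusted p = 0.989) with Eed deleted and 1.12 (SE 0.26, unadjusted p = 0.00187, adjusted p = 0.207) with Ring1a and Ring1b deleted. For the Ring1 comparison the authors' deposited table gives 1.14 with an adjusted p of 0.0392.

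Apaf1, the scaffold of the apoptosome, was at 560, 340 and 493 in Eed Control and at 775, 567 and 1064 in Eed KO, without overlap. Its log2 fold change there was 0.77 (SE 0.30, limma unadjusted p = 0.0282, adjusted p = 0.985). With Ring1a and Ring1b deleted, at 336 and 334 against 299 and 628, the 2 knockout libraries fell on either side of the controls. The pore-forming protein Bax had log2 fold changes of 0.62 (SE 0.30) and 0.72 (SE 0.37), with unadjusted p of 0.0705 and 0.0817 by limma. Of the BH3-only proteins that act upstream of Bax, Bbc3 (Puma) had log2 fold changes of 0.18 and -0.38, and Pmaip1 (Noxa) of 0.16 and -0.01. Ei24 (0.29 and 0.23) and the caspase-2 adaptor Pidd1 (-0.37 and 0.49) had unadjusted p above 0.05 in both comparisons.

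Among receptors and membrane proteins, the pair of TNF receptor relatives Tnfrsf10b and Eda2r had positive changes, and Fas and Perp negative ones, in both comparisons. Eda2r, the receptor of ectodysplasin A2, was at 93.5, 110 and 122 in Eed Control and at 239, 115 and 527 in Eed KO, so that 1 knockout library lay among the controls and another far above. Its log2 fold change was 1.17 (SE 0.51, limma unadjusted p = 0.0468, adjusted p = 0.989), and 0.54 (SE 0.46) in the Ring1 table at 61.5 and 115 against 95.8 and 156. Tnfrsf10b, the mouse TRAIL receptor, was at 333 and 294 in Ring1 Control and 421 and 705 in Ring1a/b 2KO, with no overlap. That is a log2 fold change of 0.80 (SE 0.29, limma unadjusted p = 0.0205, adjusted p = 0.404), beside 0.45 (SE 0.35) in the Eed table, where the counts were 698, 584 and 796 against 974, 547 and 1559.

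Perp had the highest level per length of all 31 targets, 1315 ± 117 RPKM in Eed Control (reads per kilobase of merged exon, scaled to library depth; SD, n = 3), whereas Eda2r (0.52) and Gls2 (0.50) had the lowest. Its normalised count was 84803, 111402 and 78239 in Eed Control and 68035, 86783 and 75272 in Eed KO. Ring1 libraries held it at 46407 and 30116 against 38718 and 22848, and the groups overlapped in both tables. The log2 fold changes were -0.24 (SE 0.25) and -0.33 (SE 0.32), with unadjusted p of 0.361 and 0.336 by limma. The death receptor Fas had log2 fold changes of -0.36 (SE 0.25) and -0.33 (SE 0.31).

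The largest group, targets that act on growth, stress and metabolism, was mixed: 5 of 9 had a positive log2 fold change in the Eed table (median 0.04) and 6 of 9 in the Ring1 table (median 0.55). Dcxr, which reduces xylulose and dicarbonyls, was at 306, 545 and 337 in Eed Control and at 1113, 577 and 1167 in Eed KO, without overlap. This gave a log2 fold change of 1.24 (SE 0.34, limma unadjusted p = 0.00477, adjusted p = 0.72), and the authors' deposited table gives an adjusted p of 0.0513. The Ring1 table held 92.2 and 71.5 in controls and 104 and 253 in knockouts, also without overlap, with a log2 fold change of 0.99 (SE 0.47, limma unadjusted p = 0.0644, adjusted p = 0.51).

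Zmat3, an RNA-binding protein that regulates splicing, was at 1428 and 1720 in Ring1 Control and 2163 and 3036 in Ring1a/b 2KO. The groups did not overlap, and the log2 fold change was 0.71 (SE 0.23, limma unadjusted p = 0.0131, adjusted p = 0.37). In the Eed table it was at 2982, 4656 and 3285 against 4646, 3909 and 6365, with overlap and a log2 fold change of 0.45 (SE 0.24). Phlda3, an inhibitor of Akt, had 0.44 (SE 0.27) and 0.55 (SE 0.34), and Ddit4, an inhibitor of mTORC1, 0.45 (SE 0.48) and 0.76 (SE 0.37). The sestrins, which also restrain mTORC1, and the polo-like kinases stood near or below 0: Sesn1 had -0.33 and -0.22, Sesn2 -0.18 and 0.07, Plk2 0.04 and -0.16, and Plk3 -0.23 and -0.45 (Eed, then Ring1).

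Gls2, which encodes the liver-type glutaminase, was the target that differed most between the tables. In Ring1 Control it was at 5.21 and 0 (10 and 0 reads) and in Ring1a/b 2KO at 50.7 and 53.8 (82 and 30 reads), a 20.1-fold ratio of means that rests on 10 control reads. Its control mean was under the minimum for the test, so it was tested only because the knockout libraries were high. The log2 fold change was 4.42 (SE 1.02, limma unadjusted p = 0.00179, adjusted p = 0.207), and the authors' deposited table gives 4.00 with an adjusted p of 0.0136. In the Eed table Gls2 was at 64.3, 49.7 and 68.8 in controls and at 113, 43.6 and 37.1 in knockouts, with overlap and a log2 fold change of -0.09 (SE 0.51; 0.074 in the authors' deposited table). The difference between the effects was 4.50 (SE 1.07, limma unadjusted p = 0.00126, adjusted p = 1.00). The size depends on the controls and the pseudocount: the Ring1 log2 fold change was 5.73 without Ring1 Control 1, 3.10 without Ring1 Control 2 and 3.0 with a pseudocount of 5. The difference was 5.82 and 3.19 without these controls, and 3.07 with that pseudocount. Spryd4 overlaps Gls2 on the opposite strand and was at 49.0 and 69.8 in Ring1 Control and at 129 and 115 in Ring1a/b 2KO. The overlap is one of whole gene spans, and no source used here states whether strand was used in counting. Without strand, only reads from exon sequence that both genes share cannot be told apart, and how much they share was not tested. Reads of Spryd4 numbered 94 and 42 in Ring1 Control and 208 and 64 in Ring1a/b 2KO.

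Repair and nucleotide supply was the group nearest to no change, with 2 of 5 positive in the Eed table (median -0.03) and 3 of 5 in the Ring1 table (median 0.04). Polk, a translesion polymerase, had the largest values, 0.64 (SE 0.35) and 0.92 (SE 0.41), and unadjusted p of 0.102 and 0.0661 by limma. Its count in Ring1 Control was 459 and 681, and in Ring1a/b 2KO 723 and 1560. The nucleotide excision repair genes Ddb2 (-0.18 and 0.04), Xpc (-0.13 and -0.26) and Ercc5 (0.23 and 0.47) did not move as one, and Rrm2b, the p53-induced ribonucleotide reductase subunit, had -0.03 and -0.27. Ddb2, Plk3 and Polk each overlap another protein-coding gene on the opposite strand, and Bax overlaps one on its own strand.

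All 3 spindle and microtubule targets had positive log2 fold changes in both tables. Psrc1, which binds microtubules at the spindle, was at 716, 551 and 686 in Eed Control and at 1813, 873 and 1409 in Eed KO. It was at 258 and 274 in Ring1 Control and at 413 and 990 in Ring1a/b 2KO, so neither table had overlap. Log2 fold changes were 1.01 (SE 0.28, limma unadjusted p = 0.00528, adjusted p = 0.734) and 1.26 (SE 0.41, unadjusted p = 0.0181, adjusted p = 0.393). Gtse1, which holds p53 in check during G2, was at 464, 488 and 358 in Eed Control and at 1040, 568 and 746 in Eed KO, without overlap. Its log2 fold change was 0.81 (SE 0.27, limma unadjusted p = 0.0153, adjusted p = 0.912), beside 0.31 (SE 0.37) in the Ring1 table, at 150 and 184 against 150 and 285. Ckap2 had 0.11 (SE 0.26) and 0.38 (SE 0.22). Proliferation genes moved beside these: 25 of 25 cell-cycle genes had a positive log2 fold change in the Eed table (median 0.39) and 24 of 25 in the Ring1 table (median 0.50). By library their median was 1.02, 0.25 and -0.30 in Eed KO 1, 2 and 3, and 0.23 and 0.72 in Ring1a/b 2KO 1 and 2. The medians of the 31 p53 targets were 0.34, 0.01 and 0.54 in Eed KO 1, 2 and 3, and 0.19 and 0.66 in Ring1a/b 2KO 1 and 2. Eed KO 3 thus had the lowest proliferation median and the highest target median of the Eed knockouts. Psrc1 and Gtse1 were highest in Eed KO 1 in the Eed table and in Ring1a/b 2KO 2 in the Ring1 table. The part of proliferation in the target values was not tested.

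**Figure D2:**
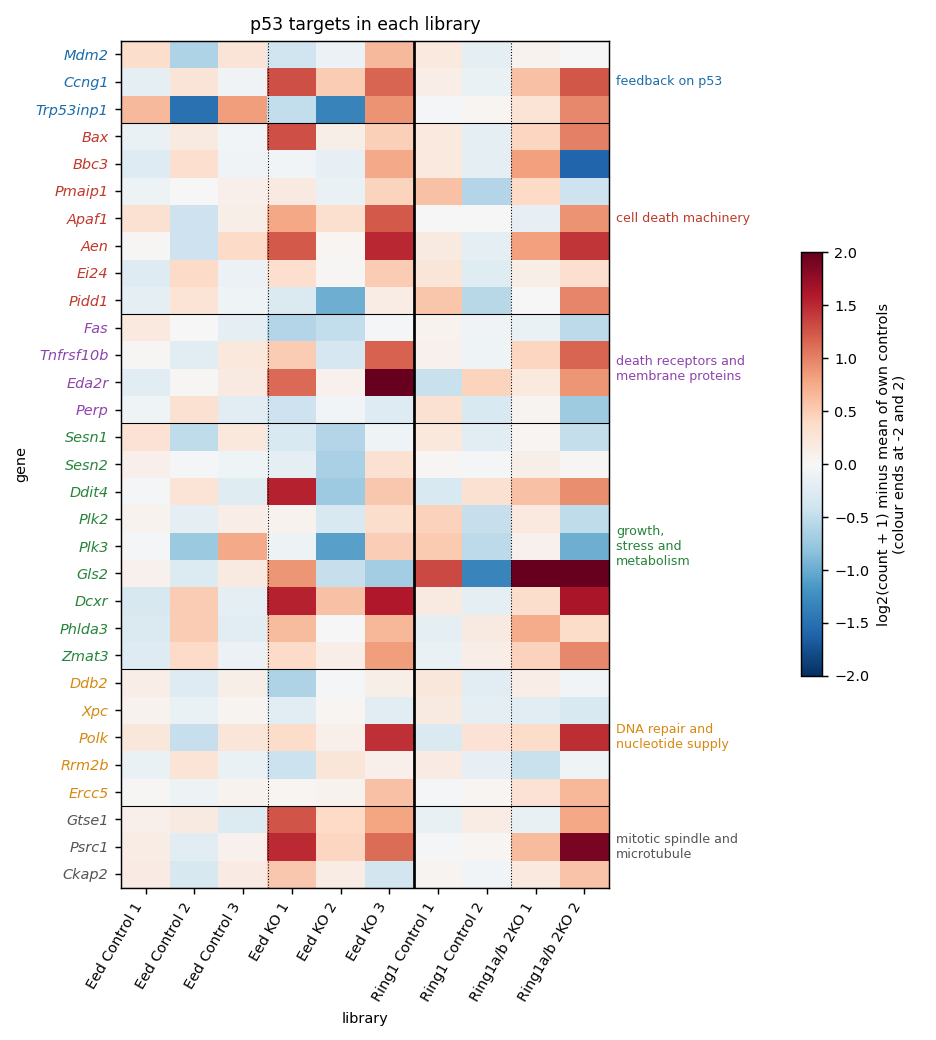
Deviation of each of 31 p53 targets (rows, by role) in each of 10 libraries (columns) from the mean of its own controls, in log2(normalised count + 1), with colours ending at -2 and 2. Above the mean of the controls are 19, 16 and 25 members in Eed KO 1, 2 and 3, and 26 and 20 in Ring1a/b 2KO 1 and 2. In the control libraries the counts are 17, 14 and 17 (Eed Control 1, 2 and 3) and 22 and 9 (Ring1 Control 1 and 2).

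The targets did not stand at one height across the libraries of a group. The median deviation from the mean of the controls, in log2(normalised count + 1), was 0.34, 0.01 and 0.54 in Eed KO 1, 2 and 3, where the 3 controls were between -0.02 and 0.08. Of the 31 targets, 21 had their highest knockout value in Eed KO 3, 7 in Eed KO 1 and 3 in Eed KO 2, and 22 had their lowest in Eed KO 2. In the Ring1 table the medians were 0.19 and 0.66 in Ring1a/b 2KO 1 and 2, beside 0.16 and -0.16 in the controls, and 19 targets were higher in Ring1a/b 2KO 2 than in Ring1a/b 2KO 1. Above the mean of the controls, however, were 26 of 31 targets in Ring1a/b 2KO 1 and 20 in Ring1a/b 2KO 2. Ring1 Control 1 and 2 themselves had 22 and 9 targets above that mean, so the count in Ring1a/b 2KO 2 was under that of a control library. Over all genes, 7644 and 7857 of 15310 were above it in Ring1a/b 2KO 1 and 2. Leaving out Eed KO 2 gave a median change of 0.32 in place of 0.18, and 13 targets higher at an unadjusted p under 0.05 in place of 7, against 3.81% of all genes. Leaving out Eed KO 3 gave a median of 0.09 and 4 targets (4.27% of all genes), and leaving out Eed KO 1 gave 3 targets (1.59%). Leaving out Ring1a/b 2KO 1 gave a median of 0.66 and 13 targets (7.18% of all genes), and leaving out Ring1a/b 2KO 2 gave 0.19 and 3 targets (3%). With Ring1 Control 1 or 2 left out, 3 targets were higher (4.55% and 3.24% of all genes).

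**Figure D3:**
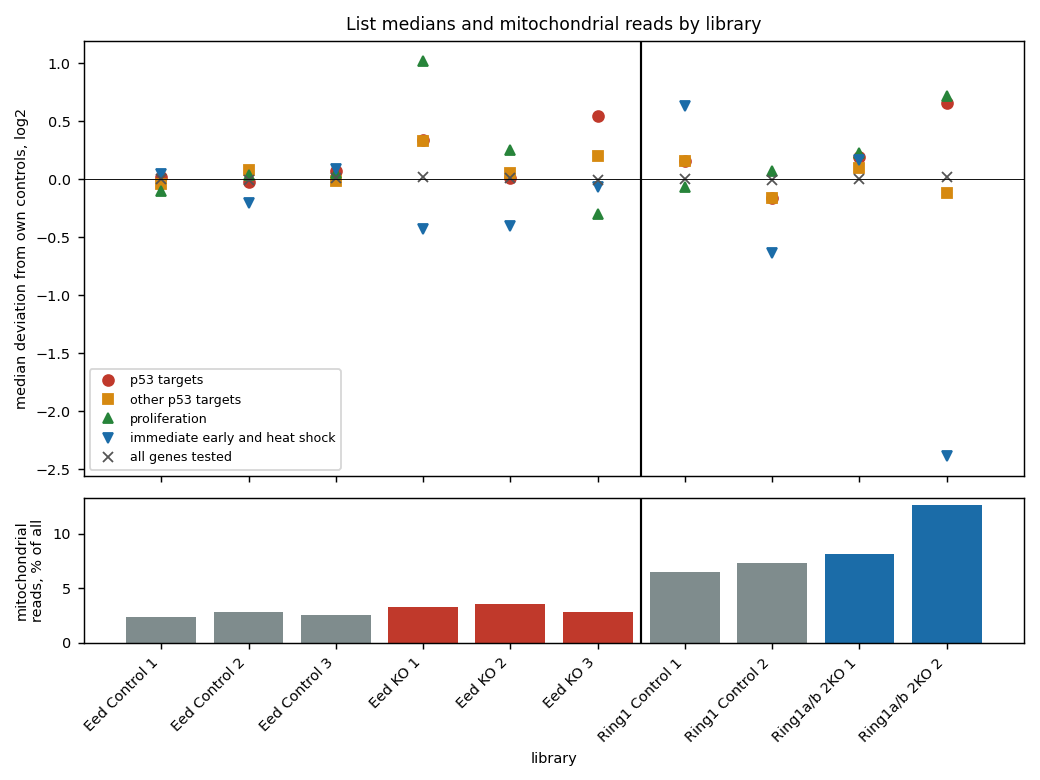
Median deviation from the mean of the controls (y axis, log2 of normalised count + 1) of 5 gene lists in each library (x axis), with the share of counts from mitochondrial genes (percent) below. The p53 targets are highest in Eed KO 3 (0.54) and Ring1a/b 2KO 2 (0.66), the latter the library with 12.7% mitochondrial counts.

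Other measures did not track the targets alike in both tables. Ring1a/b 2KO 2, the library with the highest target median, had 12.7% mitochondrial counts against 6.51% to 7.28% in its controls. Its median deviation over 25 immediate early and heat shock genes, a fast response of cells to stress and handling, was -2.39, against 0.63 and -0.63 in the controls and 0.17 in Ring1a/b 2KO 1. Eed KO 3, where the Eed target median was highest, had the lowest mitochondrial share of the Eed knockouts (2.85%, against 3.31% and 3.58%). Its immediate early and heat shock median (-0.07, against -0.43 and -0.40) was the nearest to the controls. Of these 25 genes, 24 had a negative log2 fold change in the Ring1 comparison (median -1.12) and 21 in the Eed comparison (median -0.30). The integrated stress response, whose genes are induced by ATF4 and include the targets Sesn2 and Ddit4, had 6 of 13 positive log2 fold changes in the Eed table and 9 of 13 in the Ring1 table. Fibroblast markers were higher in sum in both knockouts, as given above, with 5 of 6 and 5 of 5 tested markers above 0, and their median deviation was 1.13, -0.004 and 1.56 in Eed KO 1, 2 and 3 and 1.56 and 0.74 in Ring1a/b 2KO 1 and 2. The collagen gene Col3a1 was at 2.92, 1.01 and 17.2 in Eed Control and 0, 0 and 81.3 in Eed KO, and at 5.21 and 1.66 against 1.85 and 0 in the Ring1 table. Melanocyte markers summed to 713 to 792 in Eed Control and 558 to 966 in Eed KO, and to 241 to 311 in Ring1 Control and 353 to 658 in Ring1a/b 2KO, with Mlana and Sox10 at 0 in all Eed Control libraries. Summed myeloid, T cell and endothelial markers overlapped between groups in both tables. Keratinocyte differentiation genes were above 0 for 1 of 14 in the Eed table (median -0.63) and 6 of 14 in the Ring1 table (median -0.34), and basal markers for 5 of 14 and 2 of 14. In bulk RNA, more cells of a type and more RNA per cell cannot be told apart, and the cells that a transcript came from are not known. The part of depth, mitochondrial share, handling genes and other cell types in the target values was not tested.

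**Figure D4:**
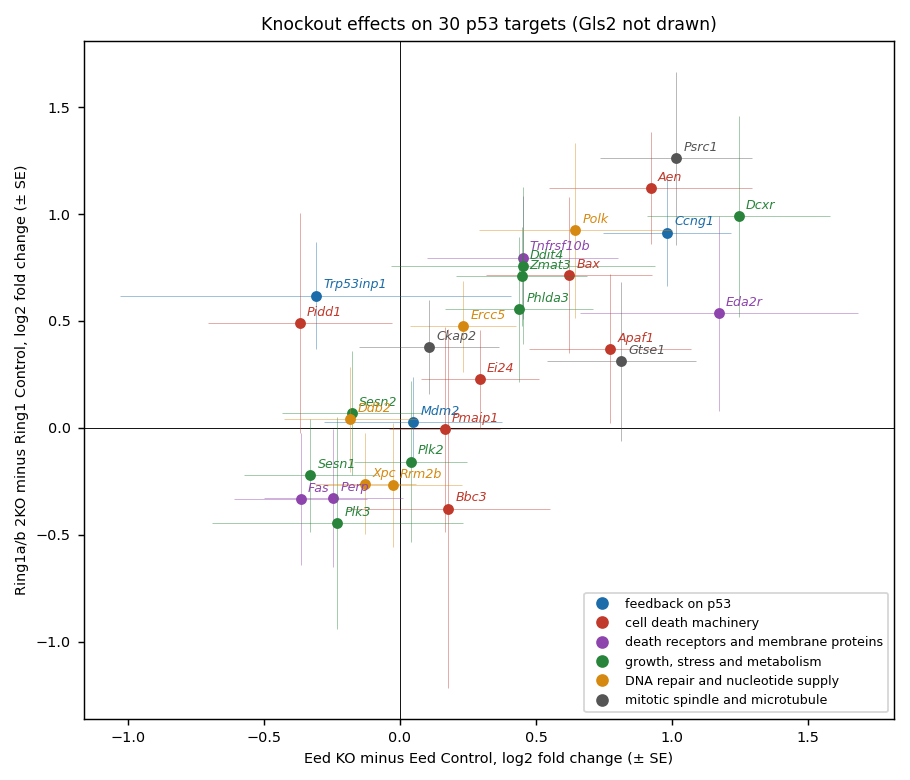
Log2 fold change with its SE of 30 p53 targets in the Eed comparison (x axis) against the Ring1 comparison (y axis), with Gls2 (-0.09 and 4.42) not drawn. Ccng1, Aen, Psrc1 and Dcxr lie together at the upper right, and Mdm2 lies near the origin.

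The Eed and Ring1 comparisons, which share no control library, were set side by side gene by gene. Of the 31 targets, 17 were above 0 in both (33.9% of 15096 genes tested in both) and 6 were below 0 in both (Fas, Perp, Plk3, Rrm2b, Sesn1 and Xpc, against 33.1% of all genes). Targets at an unadjusted p under 0.05 and higher in both numbered 3 (Aen, Ccng1 and Psrc1), against 1.43% of all genes. For 3 (Ccng1, Dcxr and Psrc1) the groups did not overlap in either table, against 2.58%. Across the 30 targets other than Gls2, the fold changes had a Pearson correlation of 0.74 and a Spearman correlation of 0.71, and over all 15096 genes 0.49 and 0.43. With Gls2 in, the values were 0.29 and 0.63. The points share the same 10 libraries and are not independent of each other. No target had a difference between the 2 effects at an adjusted p under 0.05 by limma, as was the case for all 15096 genes (0%). At an unadjusted p under 0.05 there was 1 target, Gls2, against 1.89% of all genes.

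Upstream of the targets, the transcript of p53 overlapped between groups in both tables. Trp53 was at 5042, 6963 and 5304 in Eed Control and 7982, 5696 and 5653 in Eed KO, and at 1781 and 2227 against 1977 and 1888 in the Ring1 table. Its log2 fold changes were 0.15 (SE 0.21) and -0.04 (SE 0.21; 0.15 after quantile normalization), and transcript level does not report on p53 protein. Trp63, the p63 gene and a basal keratinocyte marker, was at 55388, 56942 and 59165 in Eed Control and at 45520, 44476 and 46109 in Eed KO. It was at 17470 and 19670 against 17216 and 9838 in the Ring1 table, so that every knockout library was below its controls. The log2 fold changes were -0.33 (SE 0.21, limma unadjusted p = 0.146) and -0.51 (SE 0.29, unadjusted p = 0.107).

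The list of the p53 family and its regulators had 11 of 21 genes above 0 in the Eed table (51.2% of all genes) and 9 of 20 in the Ring1 table (50%). At an unadjusted limma p under 0.05, 2 genes were higher in each, Twist1 among them, against 3.4% (Eed) and 5.62% (Ring1) of all genes. At that threshold 0 were lower in each, against 1.33% and 4.81%. Trp73, the third family member, was at 1012, 1261 and 1111 in Eed Control and at 2757, 1799 and 1673 in Eed KO, without overlap. Its log2 fold change was 0.85 (SE 0.23, limma unadjusted p = 0.00432, adjusted p = 0.72), and 0.38 (SE 0.21) in the Ring1 table at 672 and 706 against 835 and 965. Twist1, which restrains p53 and is known from mesenchymal cells, was at 0, 0 and 1.01 in Eed Control and at 57.6, 11.4 and 3.16 in Eed KO, and at 3.65 and 1.66 against 19.2 and 48.4 in the Ring1 table. The unadjusted p of Twist1 was 0.0142 and 0.00696 by limma. Its control libraries were all under the minimum of 5, so it was tested only because knockout libraries were high. Cdkn2a, the source of the Mdm2 inhibitor p19Arf and a Polycomb target, was at 0.974, 1.01 and 0 in Eed Control and at 60.0, 17.6 and 0 in Eed KO (limma unadjusted p = 0.0991). With every Eed Control library under that minimum, Cdkn2a too was tested only because knockout libraries were high. The p53 target medians in Eed KO 1, 2 and 3 were 0.34, 0.01 and 0.54, and the part of Cdkn2a in them was not tested. In the Ring1 table Cdkn2a was below the minimum for the test (4.69 and 0 against 6.80 and 1.79).

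Beyond the 31, another 27 known p53 targets had 17 log2 fold changes above 0 in the Eed table (median 0.13) and 14 in the Ring1 table (median 0.03). Over all genes the shares above 0 were 51.2% and 50%. At an unadjusted limma p under 0.05, 2 were higher in each, against 3.4% (Eed) and 5.62% (Ring1) of all genes. At the same threshold 0 and 1 were lower, against 1.33% and 4.81%. Cdkn1a, the p21 cell-cycle inhibitor and best-known p53 target, was at 29521, 25257 and 24946 in Eed Control and 19688, 16531 and 39362 in Eed KO. It was at 4200 and 2047 against 3825 and 2340 in the Ring1 table, and its log2 fold changes were -0.18 (SE 0.32) and 0.03 (SE 0.42; -0.020 in the authors' deposited table). Cpt1c, a carnitine palmitoyltransferase relative, rose in the authors' deposited table in both comparisons, with log2 fold changes of 1.75 (adjusted p = 0.0484) and 2.32 (adjusted p = 1.55e-05). It was at 168, 167 and 259 in Eed Control and 549, 254 and 1197 in Eed KO, and at 70.3 and 73.1 against 270 and 448 in the Ring1 table. By limma the adjusted p was 0.902 and 0.128. The cytokine Lif was at 68.2, 50.7 and 81.9 in Eed Control and 194, 92.3 and 211 in Eed KO (log2 fold change 1.23, SE 0.43, unadjusted p = 0.0184 by limma), and at 42.7 and 36.6 against 66.1 and 84.3 in the Ring1 table (0.90, SE 0.48).

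The ribosomal protein paralogue Rps27l, which stabilises p53 and is on both lists, had 0.63 (SE 0.43) and 0.57 (SE 0.23, limma unadjusted p = 0.0366), at 1260 and 1010 against 1422 and 1972 in the Ring1 table. The antiproliferative gene Tob1 was the 1 gene of the wider list below its controls at an unadjusted p under 0.05, in the Ring1 table, at 1560 and 1831 against 1230 and 622. There its log2 fold change was -0.95 (SE 0.32, limma unadjusted p = 0.0207, adjusted p = 0.405), beside -0.25 (SE 0.21) with Eed deleted. Of the targets that act on melanocytes, Kitl was at 491, 337 and 682 in Eed Control and 1260, 732 and 831 in Eed KO, without overlap, with a log2 fold change of 0.92 (SE 0.31, limma unadjusted p = 0.0159, adjusted p = 0.912). In the Ring1 table it was at 260 and 161 against 409 and 1676 (log2 fold change 2.01, SE 0.86). Pomc had mean counts of 11.0 in Eed Control and 8.94 in Eed KO, and was below the minimum in the Ring1 table.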

How the data were processed

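Total RNA of the sorted cells (10 ng) was reverse transcribed and amplified before library construction, per the labels' protocols. Per the submitters' processing notes, kallisto 0.42.5, DESeq2 3.11 and the mm10 build were used, and the deposited values are counts divided by a size factor per library (a signal per gene), with the authors' log2 fold changes and adjusted p-values beside them, and a test statistic (a score), which was not used. Of the deposited values, 100% were whole multiples of one step per library (tolerance 1e-06), so reads were recovered from them. Levels were compared only within a table, since the 2 tables were normalised separately.

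Each knockout was tested against its own control with limma 3.58.1 (R 4.3.3; trend and robust) on log2(value + 1), over genes with a mean of at least 5, with Benjamini-Hochberg adjustment over all of them. Fold changes are on that scale, where the value for a low gene depends on the pseudocount, as for Gls2. The difference of the effects was an interaction term over 10 libraries. edgeR 4.0.16 and DESeq2 1.42.0 on recovered reads, other filters, pseudocounts and scaling, the replicate block and each library left out were alternatives. A test of 1 value over 2 against 2 libraries has no permutation p under 0.05. The fit was also run on counts simulated with the same dispersion for every gene. Real genes spread unevenly, as Trp53inp1 did, so that run does not check the p-values given here. Targets and lists were chosen with earlier results of these data known, so no p is given over a list. Full values are given for targets with an unadjusted limma p or an authors' adjusted p under 0.05 in either comparison, for Ccng1, Mdm2 and Perp, and for genes of the pathway lists by the same rule. Positions are mm10 (GENCODE M21) and promoters RefSeq, GRCm38.p6.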

Additional observations from a re-analysis of the deposited data

How the results depend on the processing

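Limma called 0 genes in the Eed comparison and 6 in the Ring1 comparison. The fit with a replicate block called 1 and 36, though deviations of same-numbered libraries did not all correlate (-0.108, 0.15 and 0.207 in the Eed table, 0.14 in the Ring1 table), and not every Eed library correlated best with its own number. DESeq2 called 127 genes and 231 genes, and the authors' deposited table also 127 and 231. Without a filter, 10 genes were called in the Ring1 comparison. DESeq2 and the authors' deposited table called 1 target with Eed deleted and 2 with Ring1a and Ring1b deleted, where limma called 0. EdgeR on the recovered reads called 0 and 6 genes. With each library left out in turn, 0 to 4 genes were called in the Eed comparison, 0 to 565 in the Ring1 comparison and 0 to 4 for the difference between effects. Called targets ranged from 0 to 5 in the Ring1 comparison, and targets higher at an unadjusted p under 0.05 from 3 to 13 in both. The median change ranged from 0.09 to 0.32 (Eed) and from 0.19 to 0.66 (Ring1).

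Some log2 fold changes near 0 turned sign. Gls2 in the Eed comparison was 0.080 by edgeR and 0.074 by DESeq2 and in the authors' deposited table, Trp53 in the Ring1 comparison was 0.15 after quantile normalization, and Cdkn1a there was -0.020 by DESeq2 and in the authors' deposited table. With each library left out, the Eed values ran from -0.26 to 0.27 for Mdm2, -1.05 to 0.21 for Trp53inp1, -0.57 to 0.21 for Gls2, -0.0091 to 0.30 for Trp53 and -0.55 to 0.071 for Cdkn1a. The Ring1 values ran from -0.16 to 0.22 for Mdm2, -0.71 to 0.051 for Perp, -0.17 to 0.90 for Apaf1, -0.15 to 0.77 for Gtse1, -0.20 to 0.12 for Trp53 and -0.49 to 0.55 for Cdkn1a. The cause was not tested. The shallower Ring1 libraries limit genes with few reads, such as Gls2.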
